A study of Arabidopsis thaliana with 6 samples.

Results

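The 10 genes described here are indicators of auxin synthesis, transport and response, read in 6 RNA sequencing libraries of Arabidopsis thaliana. They were taken from the table by their gene identifiers and are 10 of its 27371 rows. They are the Aux/IAA genes IAA1 (AT4G14560), IAA5 (AT1G15580), IAA6 (AT1G52830), IAA19 (AT3G15540) and IAA29 (AT4G32280), the GH3 genes GH3.3 (AT2G23170) and GH3.5 (AT4G27260), the carrier gene PIN3 (AT1G70940), and the YUCCA genes YUC8 (AT4G28720) and YUC9 (AT1G04180). All seedlings carried ahl13-1, the SALK_014014 insertion line of AHL13, a member of the AT-hook family of nuclear proteins. They were 14 days old and were grown in long days on medium without sugar. Whole seedlings had either been sprayed with Pst hrcC at an OD600 of 0.002 and kept for 24 hours (3 libraries) or served as controls (3 libraries), whose own handling the labels do not describe. Pst hrcC is a Pseudomonas syringae strain that lacks a working type III secretion system and so presents microbial patterns without injecting effectors. Wild-type seedlings are not analysed here, so every difference below is within the mutant.

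Auxin is made mainly from tryptophan in a short route whose last step is carried out by the YUCCA flavin monooxygenases. Auxin joins the TIR1/AFB receptors to the Aux/IAA repressors, the repressors are degraded, and the ARF transcription factors they held are freed. ARFs then activate genes that include most Aux/IAA genes themselves and GH3 genes, whose enzymes link auxin to amino acids and so lower the free hormone. In seedlings several of these genes, IAA19, IAA29 and YUC8 among them, are also targets of PIF4 and PIF5, growth-promoting factors whose transcripts follow the circadian clock.

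The 300 bases before the annotated start of each gene were read from the RefSeq assembly TAIR10.1 with its own annotation. The processing notes name TAIR10, and no coordinate of the table was used. The ARF-binding element was searched as TGTCTC and as TGTCGG, the PIF-binding G-box as CACGTG and the evening element of clock-controlled genes as AAAATATCT, each on both strands. TGTCTC was found in 6 of the 10 windows, those of IAA1, IAA5, IAA6, IAA19, GH3.3 and GH3.5, and in 13% of the 27443 windows of all nuclear protein-coding genes. TGTCGG was found in 2 of the 10 (IAA1 and IAA5), against 4.91% of all windows. The G-box was found in 1 of the 10 (IAA19), against 7.09%, and the evening element in 0 of the 10, against 2.79%. The windows of the Aux/IAA genes with a match and of GH3.3, which had the largest treatment difference, are shown 5′ to 3′ with all matches in capitals. The windows of IAA29, PIN3, YUC8 and YUC9 held no match to any of these motifs. That of GH3.5, which holds TGTCTC, is not shown. IAA19 lies on the plus strand (window chr3:5263701-5264000), IAA6 on the minus strand (chr1:19673653-19673952), IAA1 on the plus strand (chr4:8360696-8360995), IAA5 on the minus strand (chr1:5366498-5366797) and GH3.3 on the minus strand (chr2:9866563-9866862).
IAA19: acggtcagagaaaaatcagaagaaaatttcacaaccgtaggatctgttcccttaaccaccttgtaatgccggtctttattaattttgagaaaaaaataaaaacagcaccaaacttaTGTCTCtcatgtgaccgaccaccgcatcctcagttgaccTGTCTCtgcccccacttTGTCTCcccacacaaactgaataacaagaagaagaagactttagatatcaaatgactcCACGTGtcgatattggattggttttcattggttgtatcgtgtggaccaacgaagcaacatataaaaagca
IAA6: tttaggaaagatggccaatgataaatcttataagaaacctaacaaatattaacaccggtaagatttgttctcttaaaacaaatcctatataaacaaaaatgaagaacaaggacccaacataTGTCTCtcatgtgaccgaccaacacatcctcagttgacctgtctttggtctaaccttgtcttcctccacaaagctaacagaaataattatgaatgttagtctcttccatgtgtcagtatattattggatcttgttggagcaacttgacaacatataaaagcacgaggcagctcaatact
IAA1: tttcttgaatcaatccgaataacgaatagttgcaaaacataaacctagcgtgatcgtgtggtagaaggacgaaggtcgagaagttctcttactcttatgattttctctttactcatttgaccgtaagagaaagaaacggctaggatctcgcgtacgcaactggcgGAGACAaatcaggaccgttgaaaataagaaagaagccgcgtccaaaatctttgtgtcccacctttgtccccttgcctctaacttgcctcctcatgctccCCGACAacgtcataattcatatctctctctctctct
IAA5: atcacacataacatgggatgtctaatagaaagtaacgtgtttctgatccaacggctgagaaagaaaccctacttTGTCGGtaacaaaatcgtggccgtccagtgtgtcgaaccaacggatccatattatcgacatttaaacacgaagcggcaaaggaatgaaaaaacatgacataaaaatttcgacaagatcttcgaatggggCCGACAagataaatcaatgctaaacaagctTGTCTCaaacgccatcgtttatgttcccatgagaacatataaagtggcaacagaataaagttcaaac
GH3.3: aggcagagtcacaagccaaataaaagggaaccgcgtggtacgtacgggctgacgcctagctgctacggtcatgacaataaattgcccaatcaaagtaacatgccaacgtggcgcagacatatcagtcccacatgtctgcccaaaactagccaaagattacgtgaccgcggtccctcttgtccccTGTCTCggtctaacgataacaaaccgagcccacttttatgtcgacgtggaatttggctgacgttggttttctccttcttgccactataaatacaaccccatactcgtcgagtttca
The IAA19 window holds TGTCTC 3 times, 184, 145 and 128 bases before the start, and the G-box 70 bases before it. IAA6 and IAA19, a pair of close paralogs, share an identical run of 23 bases around a TGTCTC, taTGTCTCtcatgtgaccgacca, which begins 181 bases before the start of IAA6 and 186 bases before that of IAA19. A match describes the letters of the window and not a bound site.

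Values are FPKM as the authors deposited them, that is, sequenced fragments divided by transcript length and by the total of mapped fragments. Relative depth, read from the steps between the lowest values, was 4.54, 3.80 and 0.815 in Pst hrcC replicates 1, 2 and 3 and 1, 4.87 and 2.85 in control replicates 1, 2 and 3, so Pst hrcC replicate 3 and control replicate 1 were the shallowest. AHL13 (AT4G17950) was at 1.98, 2.43 and 2.08 FPKM after Pst hrcC and at 2.32, 2.17 and 2.47 FPKM in controls, and without a wild type these values do not check the insertion. The whole-seedling label was matched by markers of both organs: all 6 shoot genes and 12 of 14 root genes averaged at least 1 FPKM. Summed root marker levels were 91.1, 57.2 and 103 FPKM after Pst hrcC and 103, 67.0 and 76.5 FPKM in controls, and in bulk tissue fewer cells of a type and less RNA per cell cannot be told apart.

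The 10 genes spanned a wide range of levels. PIN3, a plasma membrane exporter of auxin that acts in gravitropic and phototropic growth, was the most abundant, with a mean of 16.7 FPKM over the 6 libraries. It was followed by IAA1 (10.8 FPKM), GH3.5 (7.41 FPKM), GH3.3 (3.70 FPKM), IAA19 (1.87 FPKM), YUC8 (1.34 FPKM), YUC9 (0.999 FPKM), IAA6 (0.631 FPKM), IAA29 (0.387 FPKM) and IAA5 (0.305 FPKM). Each gene's range over the 6 libraries overlapped that of the next in this order. The last 4 lay under the mean of 1 FPKM required for the test across genes, YUC9 by the smallest margin, and the other 6 were tested.

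After Pst hrcC the group of 10 did not move as a whole. GH3.3 was the gene with the largest difference, about 2.03 times the control mean, and its 3 treated values lay above the 3 control values. The treated and control values of each of the other 9 genes overlapped. None of the 6 tested genes passed a limma adjusted p of 0.05 over all genes, where 0.29% of the 16923 genes tested passed (0.284% higher and 0.00591% lower). That share rests on single libraries, since 49 genes were called with all 6 libraries and between 2 and 185 when any 1 of them was left out. At an unadjusted p under 0.05, 1 of the 6 was higher and 0 were lower, where 5.18% and 1.63% of all tested genes were. The median log2 difference of the 6 was 0.01, against 0.04 over all genes tested.

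**Figure D1:**
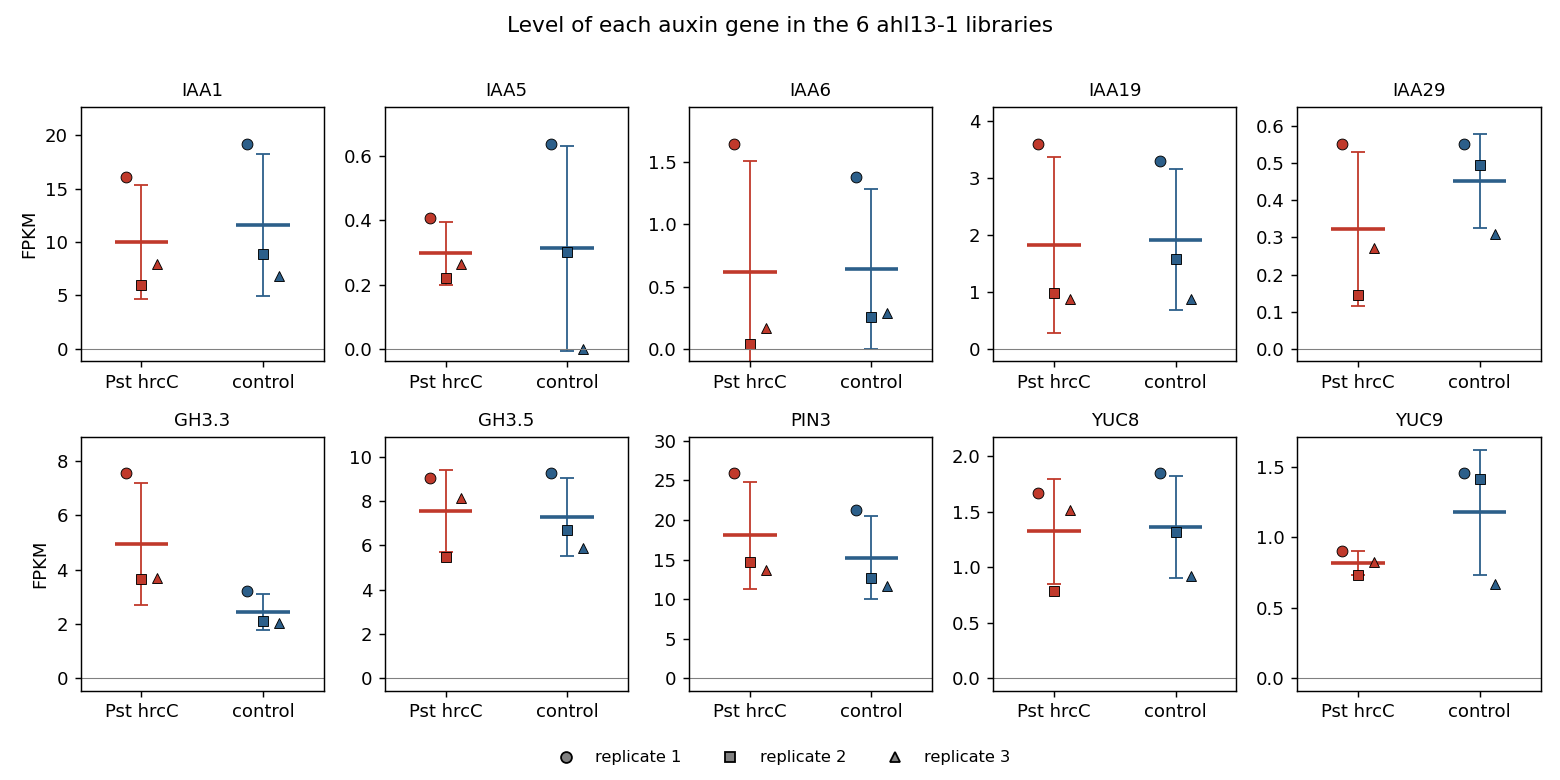
FPKM of each of the 10 genes (vertical axes, each from 0 and with its own scale) in Pst hrcC (red) and control (blue) libraries; symbols mark replicate numbers, and lines and bars give the mean and SD of 3 libraries. GH3.3 at 3.64 to 7.55 FPKM after Pst hrcC lies wholly above its controls at 2.03 to 3.21 FPKM, and the circle of replicate 1 is the highest point of its group in both groups of all 10 panels; the lower SD bar of IAA6 after Pst hrcC runs past the axis.

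GH3.3 encodes an acyl amido synthetase that conjugates indole-3-acetic acid with amino acids. It was at 7.55, 3.64 and 3.69 FPKM after Pst hrcC, against 3.21, 2.098 and 2.03 FPKM in controls. The groups did not overlap, as was the case for 7.66% of all tested genes in this direction. The means were 4.96 ± 2.24 FPKM after Pst hrcC and 2.45 ± 0.67 FPKM in controls (SD, n = 3 each). The log2 difference was 0.75 ± 0.28 (SE, limma adjusted p = 0.656; 0.137 when blocked by replicate number), with 1.02, 0.58 and 0.63 in the pairs of replicates 1, 2 and 3. The difference rests in part on Pst hrcC replicate 1, since it was 0.45 on the log2 scale without that library. The lowest adjusted p over 17 alternative fits was 0.0846, with a term for replicate 1, and the highest was 1.00. GH3.5, a relative that also conjugates auxin, was at 9.03, 5.47 and 8.12 FPKM after Pst hrcC, against 9.24, 6.69 and 5.89 FPKM in controls. Its groups overlapped, and its log2 difference of 0.04 ± 0.23 (SE, limma adjusted p = 1.00) took the opposite sign after median-of-ratios scaling or quantile normalization.

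Among the Aux/IAA genes, which encode short-lived repressors of the auxin response, IAA1 was at 16.1, 5.998 and 7.94 FPKM after Pst hrcC, against 19.2, 8.91 and 6.78 FPKM in controls. The library of replicate 1 was the highest in each group, and the groups overlapped. The log2 difference of IAA1 was -0.18 ± 0.45 (SE, limma adjusted p = 1.00). IAA19, a repressor that restrains the tropic growth response of the hypocotyl, was at 3.599, 0.982 and 0.876 FPKM after Pst hrcC, against 3.29, 1.58 and 0.874 FPKM in controls. Its log2 difference was -0.09 ± 0.44 (SE, limma adjusted p = 1.00). The pattern matched that of IAA1, with high values in replicate 1 of both groups and overlap between treatments.

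IAA6, the paralog of IAA19, was at 1.65, 0.0362 and 0.171 FPKM after Pst hrcC, against 1.39, 0.254 and 0.291 FPKM in controls. Multiplied by relative depth, these values were 54.4, 1.00 and 1.01 times the smallest of the 6 after Pst hrcC and 10.07, 8.98 and 6.03 times in controls. All but the first lie near whole multiples, and Pst hrcC replicates 2 and 3 share the lowest step. IAA5 was at 0.407, 0.221 and 0.264 FPKM after Pst hrcC, against 0.637, 0.300 and 0 FPKM in controls, where control replicate 3 is listed at 0. IAA29, a repressor gene strongly induced in shade and warmth, was at 0.551, 0.144 and 0.272 FPKM after Pst hrcC, against 0.551, 0.495 and 0.309 FPKM in controls. The groups overlapped for all 3 genes. Two-sided exact permutation tests gave p = 0.8 for IAA6, p = 1 for IAA5 and p = 0.5 for IAA29, where 3 against 3 libraries can reach 0.1 at the lowest.

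PIN3 was at 25.9, 14.7 and 13.7 FPKM after Pst hrcC, against 21.3, 12.7 and 11.7 FPKM in controls. Treated seedlings were higher in each of the 3 same-numbered pairs (0.27, 0.19 and 0.21 on the log2 scale), as were 21.2% of all tested genes, while the groups themselves overlapped. The log2 difference was 0.23 ± 0.31 (SE, limma adjusted p = 1.00; 0.482 when blocked by replicate number). YUC8 was at 1.67, 0.784 and 1.51 FPKM after Pst hrcC, against 1.84, 1.31 and 0.925 FPKM in controls, with overlapping groups and a mean difference in log2 of -0.03 ± 0.22 (SE, limma adjusted p = 1.00). YUC9 was at 0.900, 0.733 and 0.827 FPKM after Pst hrcC, against 1.45, 1.42 and 0.667 FPKM in controls. Control replicates 1 and 2 of YUC9 lay above the other 4 libraries, which were close together (two-sided exact permutation p = 0.4).

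**Figure D2:**
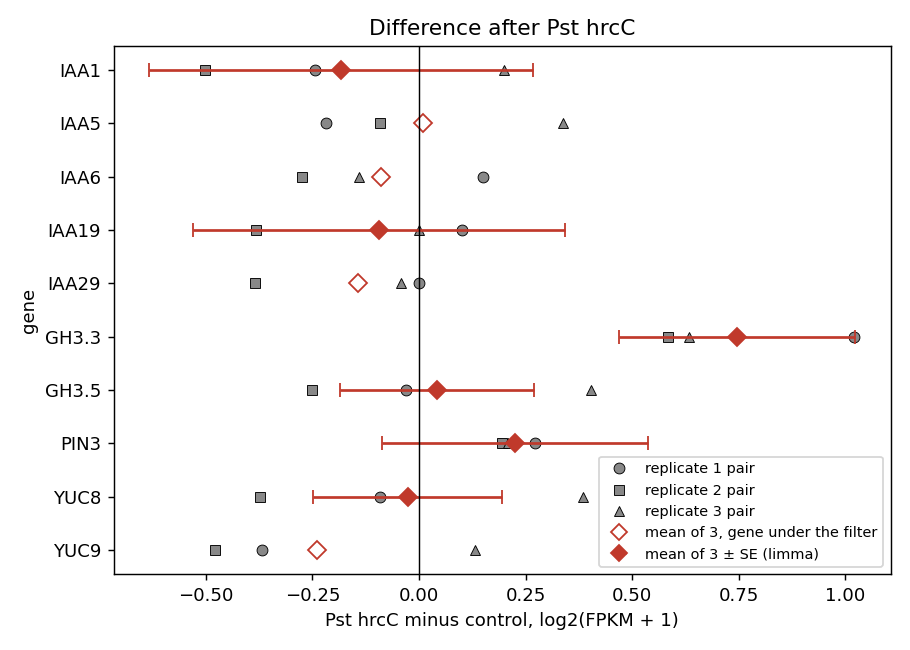
Difference between Pst hrcC and control on the log2(FPKM + 1) scale (horizontal axis) for each gene; grey symbols are the same-numbered pairs, filled diamonds the mean with its limma SE, and open diamonds the mean of the 4 genes under 1 FPKM. GH3.3 lies at 0.75 with all 3 pairs above 0.5, and PIN3 at 0.23 with all 3 pairs above 0, while the other genes have pairs on both sides of 0 or at it.

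The genes shared an order by replicate number. Within each treatment, replicate 1 was the highest library for all 10 genes, as it was for 16.7% of the 24422 genes with signal in any library. Both replicate 1 libraries, the treated and the control, lay above the other 4 libraries for IAA1, IAA5, IAA6, IAA19, IAA29, GH3.5, PIN3 and YUC8, which is 8 of the 10 genes. Of the same 24422 genes, 12.3% had this order. Of the 6 tested genes 5 had it, against 14.1% of the tested genes, and 20.9% of the tested genes had both replicate 1 libraries below the other 4. Multiplied by relative depth, control replicate 1 was at 2.96 times the smallest nonzero value for IAA5 and 2.49 times for IAA29. Control replicate 2 of IAA29 was at 10.89 times. The order of IAA5 and IAA29 therefore rests on low values in a shallow library. The replicate 1 mean was higher than that of the other 4 libraries for all 10 genes as deposited and under median-of-ratios, quantile and nuclear scaling. The separation held for 8 genes under median-of-ratios scaling, where 18% of tested genes had it, and for 7 after quantile normalization, where 16.2% had it. After rescaling to summed nuclear FPKM it held for 1 gene, IAA6, and for 2.1% of tested genes. That last scaling moved the median replicate 1 difference of all tested genes to 0.17, against -0.06 as deposited. Since the genes were chosen with earlier results of these data known, the counts describe them and are no independent support.

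IAA6 was at 1.65 FPKM in Pst hrcC and 1.39 FPKM in control replicate 1, against 0.0362 to 0.291 FPKM in the other 4 libraries. IAA19 was at 3.599 and 3.29 FPKM in the treated and control replicate 1 libraries, against 0.874 to 1.58 FPKM in the others, a ratio of means of 3.19. For IAA1 the ratio was 2.38 and the log2 difference 1.15 ± 0.17, for IAA19 the log2 difference was 1.11 ± 0.16, and for PIN3 it was 0.79 ± 0.11 (SE, limma). IAA29 reached 0.551 FPKM in both replicate 1 libraries, with control replicate 2 close at 0.495 FPKM. GH3.3 differed from this order, because its control replicate 1 value of 3.21 FPKM lay below the treated values of 3.64 and 3.69 FPKM in replicates 2 and 3. YUC9 differed too, since its treated replicate 1 value of 0.900 FPKM lay below control replicate 2 at 1.42 FPKM.

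In a limma F test of the replicate number, with treatment in the model, 0 of the 6 tested genes passed an adjusted p of 0.05, where 2.17% of all tested genes did. The adjusted p in that limma test was 0.0623 for PIN3, 0.0652 for IAA19, 0.0719 for IAA1, 0.129 for GH3.3, 0.289 for GH3.5 and 0.430 for YUC8. At an unadjusted p under 0.05, 4 of the 6 were below it, against 23.6% of all tested genes. PIN3 passed when only genes averaging at least 5 FPKM were tested (limma adjusted p = 0.0430) and under median-of-ratios scaling (limma adjusted p = 0.0483).

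**Figure D3:**
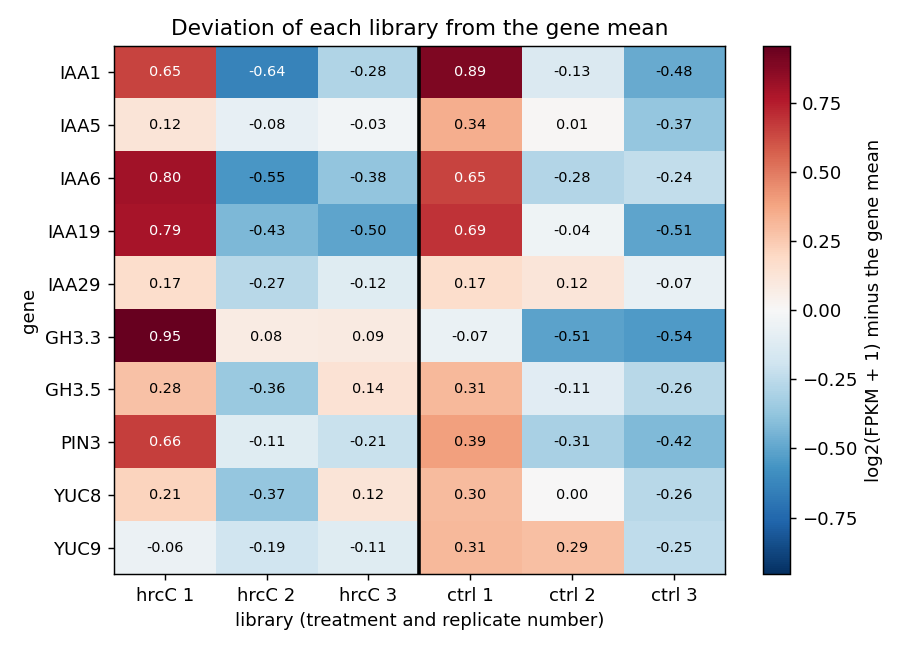
Deviation of each library from the gene's mean over the 6 libraries, in log2(FPKM + 1), for the 10 genes; columns are libraries, treated left of control. Red cells, above the mean, fill the replicate 1 columns of both treatments except for YUC9 after Pst hrcC and GH3.3 in the control.

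Clock transcripts stood apart by the same replicate number. Of the 10 tested clock genes 9 passed the F test by replicate number, against 2.17% of all tested genes. None of the 10 passed for treatment, where 0.29% of all tested genes did. CCA1, which encodes a morning-phased repressor of the clock, was at 16.0 FPKM in Pst hrcC replicate 1 and 14.5 FPKM in control replicate 1, against 0.162 to 0.233 FPKM in the other 4 libraries (limma adjusted p = 0.00420). ELF4, an evening-phased component, was at 5.31 and 5.64 FPKM in the treated and control replicate 1 libraries, against 123 to 160 FPKM in the others (limma adjusted p = 0.00350). LHY, RVE8 and PRR9 lay on the side of CCA1 and TOC1, LUX, ELF3, PRR5 and GI on that of ELF4, while PRR7 lay on neither. Summed over the 11 clock genes, levels were 83.1 and 84.0 FPKM in the treated and control replicate 1 libraries and 270 to 351 FPKM in the others, and no clock gene was at 0. The labels give no time of harvest, and the part of the clock in the values of the auxin genes was not tested.

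PIF5 had the same order as the auxin genes, at 28.2 FPKM in Pst hrcC and 36.2 FPKM in control replicate 1, against 11.3 to 15.8 FPKM in the other 4 libraries. Its log2 values were higher in replicate 1 by 1.14 ± 0.12 (SE, limma). The F test by replicate number gave a limma adjusted p of 0.0345. PIF7, a factor of the shade response, was at 8.91 and 10.8 FPKM in the treated and control replicate 1 libraries, against 4.75 to 6.92 FPKM in the others (limma adjusted p = 0.0907). PIF4 did not share the order: it was at 19.7 and 19.6 FPKM in the treated and control replicate 1 libraries, against 17.9 to 29.4 FPKM in the others (limma adjusted p = 0.239). Shoot markers differed in the same libraries. Of the 6, 4 had both replicate 1 libraries above the others, against 14.1% of all tested genes. LHCB2.1 of the light-harvesting antenna passed the F test (limma adjusted p = 0.0204). The summed level of the 6 was 24795 and 23529 FPKM in the treated and control replicate 1 libraries, against 15732 to 18286 FPKM in the others. Of the 12 tested root markers, 4 had this order too and 0 had the opposite one, against 14.1% and 20.9% of all tested genes. No shoot marker was at 0, and the part of either marker group in the values of the auxin genes was not tested.

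**Figure D4:**
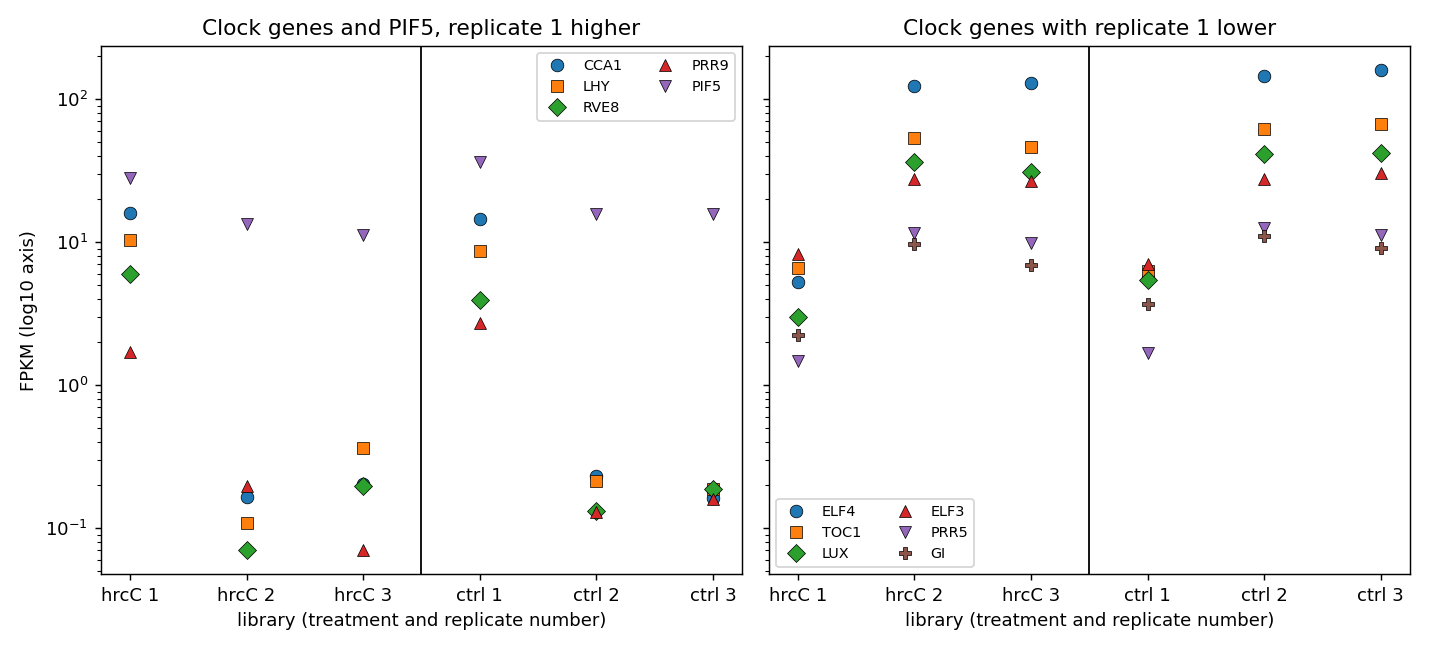
FPKM on a log10 axis of clock genes and of PIF5 in the 6 libraries, treated left of control. CCA1, LHY, RVE8, PRR9 and PIF5 (left panel) are high in replicate 1 of both treatments, with CCA1 at 16.0 and 14.5 FPKM, and ELF4, TOC1, LUX, ELF3, PRR5 and GI (right panel) are low there.

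Other members of both families were read from lists of auxin genes. Of 24 further Aux/IAA genes 17 were tested, and none passed in limma over all genes, where 0.29% of all tested genes passed. At an unadjusted p under 0.05, 0 of the 17 were higher and 1 was lower, against 5.18% and 1.63% of all tested genes. The lowest p belonged to IAA4, at 25.3 ± 3.35 FPKM after Pst hrcC and 35.9 ± 3.01 FPKM in controls (SD, n = 3 each, limma adjusted p = 0.519), and IAA7, at 12.5 ± 1.36 FPKM after Pst hrcC and 15.7 ± 0.55 FPKM in controls (SD, n = 3 each, limma adjusted p = 0.751). By replicate number, 5 of the 17 had both replicate 1 libraries above the other 4, against 14.1% of all tested genes. The opposite order was seen for 3 of the 17, against 20.9% of all tested genes. IAA17, the AXR3 repressor of root growth, was among the 5, at 9.43 and 12.5 FPKM in the treated and control replicate 1 libraries and 2.47 to 4.23 FPKM in the others (limma adjusted p = 0.0820 by replicate number). Of 9 further GH3 genes 6 were tested and none passed for treatment. At an unadjusted p under 0.05, 1 of the 6 was higher and 0 were lower, against the same 5.18% and 1.63%. GH3.10 was at 8.97 ± 2.82 FPKM after Pst hrcC and 4.99 ± 1.27 FPKM in controls (SD, n = 3 each, limma adjusted p = 0.575), and GH3.2 at 5.28 ± 2.36 FPKM after Pst hrcC and 2.78 ± 0.58 FPKM in controls (SD, n = 3 each, limma adjusted p = 0.743). GH3.9 was at 2.80 and 2.76 FPKM in the treated and control replicate 1 libraries, against 0.655 to 0.972 FPKM in the others (limma adjusted p = 0.0510 by replicate number).

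Upstream and downstream of the repressors, treatment differences in limma over all genes did not pass for any of 6 TIR1/AFB receptors, 14 tested ARF factors, 11 tested transport genes or 8 tested synthesis genes. Of all tested genes, 0.29% passed. At an unadjusted p under 0.05 there were 0 receptors, 0 ARF factors, 1 transport gene (PIN7, lower) and 2 synthesis genes (both higher). Of all tested genes, 5.18% were higher and 1.63% lower at that unadjusted p. The exporter gene PIN7, related to PIN3, was at 10.2, 9.53 and 9.30 FPKM after Pst hrcC, against 14.5, 12.4 and 11.6 FPKM in controls (limma adjusted p = 0.637). The groups did not overlap, a position below the controls that 3.61% of tested genes shared. NIT1, a nitrilase that can make auxin from indole-3-acetonitrile, was at 124, 89.5 and 138 FPKM after Pst hrcC, against 67.1, 28.1 and 35.1 FPKM in controls (limma adjusted p = 0.274). NIT3, its relative, was at 4.06, 5.01 and 6.76 FPKM after Pst hrcC, against 2.35, 2.96 and 2.66 FPKM in controls (limma adjusted p = 0.307). The nitrilase genes are close copies, and how the authors' counting split shared reads is unknown. The receptors had the opposite order by replicate number. Of 6, 4 had both replicate 1 libraries below the other 4, TIR1 among them at 26.2 and 25.8 FPKM in the treated and control replicate 1 libraries, against 32.4 to 39.0 FPKM in the others, and 20.9% of all tested genes had this order.

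The genes of auxin release and inactivation had the largest median treatment difference of the auxin lists. Of 8 genes 6 were tested, and none passed in limma over all genes, where 0.29% of all tested genes passed. At an unadjusted p under 0.05 in limma, 5 of the 6 were higher, against 5.18% of all tested genes. The median log2 difference of the 6 was 1.26, against 0.04 over all tested genes. ILR1, IAR3 and ILL6 encode related amidohydrolases. ILR1 and IAR3 cleave amino acid conjugates of auxin, and IAR3 and ILL6 those of jasmonate. IAR3 was at 18.5, 30.7 and 38.2 FPKM after Pst hrcC, against 7.17, 8.44 and 9.90 FPKM in controls, with log2 values higher by 1.62 ± 0.28 (SE, limma adjusted p = 0.113; 0.0474 when blocked by replicate number). ILL6 was at 4.76, 9.35 and 12.2 FPKM after Pst hrcC, against 1.64, 1.87 and 1.53 FPKM in controls (limma adjusted p = 0.109). ILR1 was at 5.05, 6.83 and 6.995 FPKM after Pst hrcC, against 2.75, 2.68 and 2.90 FPKM in controls (limma adjusted p = 0.0965). In these 3 genes the treated replicate 1 library was the lowest treated one. Without it limma called all of them (adjusted p = 0.0166 for IAR3, 0.00741 for ILL6 and 0.0315 for ILR1). Leaving out the lowest treated value raises the difference of a gene, so these calls are no independent support. The same omission raised the calls over all genes from 49 to 185. Without either of the other treated libraries none of the 3 passed.

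DAO1 and DAO2, neighbouring genes for dioxygenases that oxidise auxin, were both higher after Pst hrcC in every pair, as were 21.2% of all tested genes. DAO2 was at 13.1, 18.9 and 23.6 FPKM after Pst hrcC, against 9.07, 4.43 and 3.68 FPKM in controls (limma adjusted p = 0.214). DAO1 was at 5.63, 7.29 and 7.95 FPKM after Pst hrcC, against 5.10, 4.31 and 4.36 FPKM in controls (limma adjusted p = 0.506). UGT74E2, a glucosyltransferase of indole-3-butyric acid, was at 6.43, 4.16 and 3.19 FPKM after Pst hrcC, against 15.3, 9.43 and 4.19 FPKM in controls. It was lower in every pair, as were 13.5% of all tested genes, while its groups overlapped (limma adjusted p = 0.914).

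**Figure D5:**
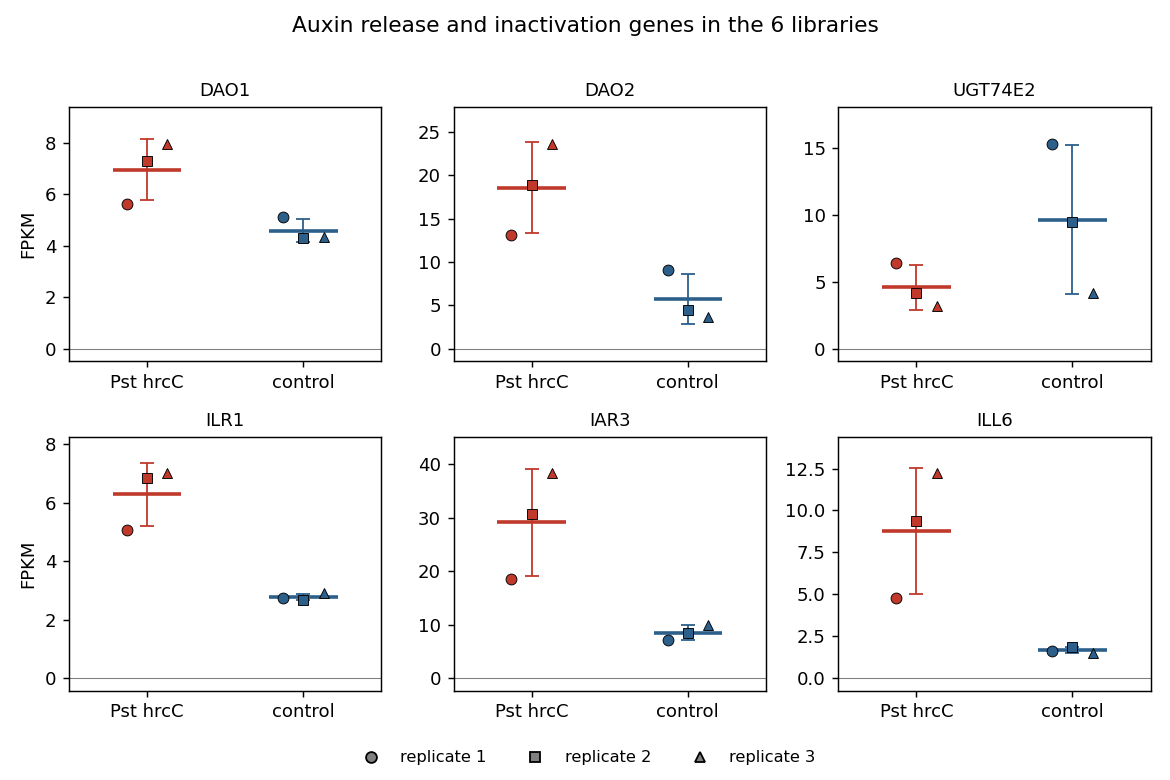
FPKM of the 6 tested genes of auxin release and inactivation in Pst hrcC (red) and control (blue) libraries; symbols mark replicate numbers, and lines and bars give the mean and SD of 3 libraries. For all but UGT74E2 the treated values lie above the controls, as they did for 7.66% of all tested genes. IAR3 is at 18.5 to 38.2 FPKM after Pst hrcC and 7.17 to 9.90 FPKM in controls.

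The genes whose profile over the 6 libraries was most like the mean standardised profile of the 6 tested genes were sought among 8687 genes averaging at least 5 FPKM. They were AT3G19450, a cinnamyl alcohol dehydrogenase gene of lignin synthesis listed as ATCAD4 (r = 0.997), AT4G12600 (r = 0.993), the beta-amylase gene AT3G23920 (r = 0.992), AT5G27120 (r = 0.991) and the methionine synthase gene AT5G17920, ATMS1 (r = 0.990). All 5 had both replicate 1 libraries above the other 4, and ATCAD4 was at 33.4 and 27.0 FPKM in the treated and control replicate 1 libraries, against 10.8 to 15.8 FPKM in the others. The 6 points fall into these same clusters, so r describes the separation of replicate 1 more than an order within the other libraries.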

How the data were processed

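The authors deposited 1 table of FPKM values with 27371 gene identifiers and 1 column per library. Per the submitters' processing notes, TAIR10 was the build and the tools included Cufflinks 2.2.1, TopHat2 2.1.1 and FastQC. The sources used here give no annotation, strand setting or filter. Values were used without rescaling, and groups and replicate numbers come from the sample titles. No label states that the libraries of a group are separate cultures, so p-values cover the spread between these libraries, which may be technical. FPKM carries no counts, so a value of exactly 0 is only described as listed at 0. Relative depth was read from the commonest step among the lowest values of control replicate 1, and the procedure was tested on simulated data.

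The 16923 genes averaging at least 1 FPKM were tested in limma 3.58.1 (R 4.3.3) after the transformation log2(FPKM + 1), with an intensity-dependent prior variance, two-sided tests and Benjamini-Hochberg adjustment over all of them. Treatment was the only term of the first fit, which had 4 residual degrees of freedom. The F test of the replicate number had treatment and replicate number as factors and 2 residual degrees of freedom. It takes any difference among the replicate numbers, not only that of replicate 1 from the others. Adjusted p-values given beside replicate 1 values come from it. A gene passed at an adjusted p under 0.05. The log2 scale with a pseudocount understates differences of low genes. Genes under the filter were compared with exact permutation tests. Both fits were tested on simulated data. Alternatives changed the pseudocount, the filter, the scaling, the variance model, the weights, the terms and the libraries included.

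Whether replicate numbers pair the libraries was checked by correlating, across genes, each library's departure from its group mean with that of its namesake. The coefficients were 0.43 for replicate 1, 0.17 for replicate 2 and 0.13 for replicate 3. Pst hrcC replicate 2 and control replicate 3 correlated at 0.21, above the namesakes of either. All namesakes exceed 0.1, the value set for pairing. However, departures within a group cancel out, so the separation of replicate 1 alone can make the other coefficients positive. The check therefore cannot decide whether replicates 2 and 3 are paired. Pairing was assumed for same-numbered pairs and blocked fits, with replicate 1 as its clearest case, and no label states it.

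The 10 genes, the 11 lists of other genes and the attention to replicate 1 were chosen with earlier results of these data known. The naming rule took the 10 genes, AHL13, the 2 genes with the smallest treatment p and any called gene of each other auxin list, PIF4, PIF5, PIF7, the 5 most similar profiles and the clock genes as a range; those that carry a comparison are given. CCA1, ELF4, IAA17, GH3.9, TIR1, DAO1, DAO2, IAR3, UGT74E2 and LHCB2.1 were added after their values were seen. Symbols came from the lists or from RefSeq, which held 26703 of the identifiers.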

Additional observations from a re-analysis of the deposited data

How the results depend on the processing

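None of the 10 genes passed for treatment in any of the 18 alternative fits, which tested between 3 and 10 of them. The largest difference, that of GH3.3, kept its sign in all 17 fits that held it. It was 0.45 without Pst hrcC replicate 1, 0.40 with a pseudocount of 5 and at most 0.94, against 0.75 as reported. Over the whole table the treatment fit called 49 genes, 47 with the replicate number as a block, 17 with a pseudocount of 5, 2 with no filter on low values, 116 after rescaling to nuclear genes, 407 with array weights, 129 with a term for replicate 1, 200 without the replicate 1 pair, and 185, 2 and 3 without Pst hrcC replicates 1, 2 and 3 and 24, 2 and 4 without control replicates 1, 2 and 3. The replicate block changed no call among the 10 genes and added that of IAR3. Of the genes of release and inactivation, 3 passed when a term for replicate 1 was added, 5 under array weights, 4 without the replicate 1 pair and 3 when Pst hrcC replicate 1 was left out, and of the synthesis genes 1, NIT1, passed with array weights. By replicate number, 0 of the 6 genes tested passed in the limma F test as reported. All 10 were tested only with no filter on low values, where 0 passed too. PIN3 alone passed with a mean of at least 5 FPKM and under median-of-ratios scaling. Leaving out 1 library gave 0 each time. By replicate number 367 of all genes were called, 65 with no filter, 50 after rescaling to nuclear genes, 26, 33 and 376 without Pst hrcC replicates 1, 2 and 3 and 64, 39 and 275 without control replicates 1, 2 and 3. Small treatment differences changed sign: between -0.55 and 0.22 for IAA1, -0.51 and 0.23 for IAA19, -0.087 and 0.23 for GH3.5, -0.050 and 0.48 for PIN3 and -0.16 and 0.15 for YUC8 without any 1 library. GH3.5 was at -0.0083 under median-of-ratios scaling, -0.022 under quantile normalization and -0.035 with array weights, and YUC8 at 0.0052 without the replicate 1 pair. The causes were not tested.

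IAA5, IAA6 and IAA29 had means under 1 FPKM, and how depth limits their comparisons was not tested. With 3 libraries against 3 their exact permutation p cannot go below 0.1.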
